A study of Mus musculus with 16 samples.

Results

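The 10 genes described here, Pecam1, Cdh5, Kdr, Emcn, Cldn5, Tek, Tie1, Egfl7, Vwf and Esam, were taken as a named list of genes that vascular endothelial cells of many organs express. All 10 were found among the 17125 genes that the liver and subcutaneous tables share, and all 10 passed the filter on low values (a mean of at least 1) in each comparison. RNA had been sequenced in 16 libraries from tumors of 4T1 cells, mouse mammary carcinoma cells that serve to model triple-negative breast cancer, in 6-week-old wild-type (WT) female BALB/c mice. The groups were post_Liver (5 libraries from liver tumors of paclitaxel-treated mice), pre_Liver (5 libraries from untreated liver tumors), post_SC (3 libraries from tumors of treated mice, labelled subcutaneous and grown in the mammary fat pad) and pre_SC (3 libraries from untreated tumors of that site). Liver tumors were started with 200000 cells under the capsule of the left lobe and fat pad tumors with 400000 cells, so the site and the number of implanted cells cannot be told apart. Treated mice were given 10 mg/kg paclitaxel into the peritoneum 5 times a week for 2 weeks, and control mice were given PBS. The labels state 15 days of tumor growth, but not whether the untreated tumors were PBS controls or were taken before dosing, so treatment and tumor age cannot be told apart. Whole tumors were digested to cells before RNA extraction, so the libraries hold carcinoma cells, host vessels, other stroma and, in the liver, hepatocytes. The labels do not say that each library came from its own mouse, and p-values measure the spread between libraries only.

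Endothelial cells line blood vessels, hold each other at junctions and receive growth signals through receptor tyrosine kinases. Vascular endothelial growth factor (VEGF) made by tumor cells acts through Kdr (VEGFR2) to drive sprouting, while angiopoietins act through Tek (TIE2), with Tie1 as its partner, on vessel stability. Cdh5 (VE-cadherin), Cldn5 (claudin 5), Esam and Pecam1 (CD31) sit at endothelial cell contacts, Emcn is a sialomucin of venous and capillary endothelium, Egfl7 is a secreted protein of endothelial cells, and Vwf is the clotting factor stored in their granules. Pecam1, Esam and Vwf are also known from platelets or megakaryocytes, and Pecam1 from leukocytes. In whole tissue, fewer cells of a type and less RNA per cell cannot be told apart.

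The 10 genes are protein-coding and lie on 9 chromosomes of GRCm38 (GENCODE annotation). The junction genes are Cdh5 (chr8:104101625-104144511, plus strand), Cldn5 (chr16:18776847-18778262, plus), Esam (chr9:37528078-37538319, plus) and Pecam1 (chr11:106654217-106750628, minus). The receptor genes are Kdr (chr5:75932827-75978458, minus), Tek (chr4:94739289-94874976, plus) and Tie1 (chr4:118471191-118490061, minus). The remaining genes are Emcn (chr3:137341067-137432185, plus), Egfl7 (chr2:26580014-26593120, plus) and Vwf (chr6:125546774-125686679, plus).

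RefSeq promoter windows (250 bases before to 50 after a start, GRCm38.p6) were at hand for 6 of the 10 genes, with 8 windows in all. Shown are 3 genes that were higher in treated fat pad tumors (Emcn, Egfl7, Cldn5) and the 2 genes whose highest group mean was that of pre_Liver (Tek and Kdr). Both strands were searched for CAGGAAG and CCGGAAG, forms of the ETS factor site, AGATAA, a form of the GATA factor site, AACAATG, a form of the SOX factor site, and TATAAA, the TATA box. Capitals mark a match. The windows are chr3:137340828-137341127 for Emcn (plus strand), chr2:26583615-26583914 for 1 of 3 Egfl7 starts (plus strand), chr16:18776597-18776896 for Cldn5 (plus strand), chr4:94739039-94739338 for Tek (plus strand) and chr5:75978406-75978705 for Kdr (minus strand).
Emcn: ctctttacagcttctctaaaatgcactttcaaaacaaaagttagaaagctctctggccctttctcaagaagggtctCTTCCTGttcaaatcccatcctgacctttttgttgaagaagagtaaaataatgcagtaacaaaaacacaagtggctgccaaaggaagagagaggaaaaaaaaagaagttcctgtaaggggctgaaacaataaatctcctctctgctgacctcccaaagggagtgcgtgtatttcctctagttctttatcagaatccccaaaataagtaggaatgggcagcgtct
Egfl7: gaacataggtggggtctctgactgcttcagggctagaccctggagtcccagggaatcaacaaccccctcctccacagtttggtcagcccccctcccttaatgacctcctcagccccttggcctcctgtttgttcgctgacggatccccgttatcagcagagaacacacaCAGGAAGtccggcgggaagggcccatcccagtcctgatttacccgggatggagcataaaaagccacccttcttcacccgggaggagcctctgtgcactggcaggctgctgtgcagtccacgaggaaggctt
Cldn5: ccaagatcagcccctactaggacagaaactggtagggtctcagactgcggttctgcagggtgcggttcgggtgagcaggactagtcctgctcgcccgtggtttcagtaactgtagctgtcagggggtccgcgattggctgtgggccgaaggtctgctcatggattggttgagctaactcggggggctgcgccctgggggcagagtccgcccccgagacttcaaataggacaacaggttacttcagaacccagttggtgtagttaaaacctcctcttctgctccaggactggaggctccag
Tek: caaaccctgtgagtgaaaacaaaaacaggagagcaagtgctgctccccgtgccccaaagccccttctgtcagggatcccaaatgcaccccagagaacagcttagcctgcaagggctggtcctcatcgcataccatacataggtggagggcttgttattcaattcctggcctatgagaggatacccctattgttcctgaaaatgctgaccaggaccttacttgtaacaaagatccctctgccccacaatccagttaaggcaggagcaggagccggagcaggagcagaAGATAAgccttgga
Kdr: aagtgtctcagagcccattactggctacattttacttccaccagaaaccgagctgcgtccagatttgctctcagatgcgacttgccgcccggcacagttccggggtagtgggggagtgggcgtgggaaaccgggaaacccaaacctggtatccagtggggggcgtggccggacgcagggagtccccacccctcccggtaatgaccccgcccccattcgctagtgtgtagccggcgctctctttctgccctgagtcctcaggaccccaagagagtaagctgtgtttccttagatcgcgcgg
CAGGAAG was found in Emcn, on the minus strand at position -174 from the start, and in the Egfl7 window shown, on the plus strand at -81. A second Egfl7 window, chr2:26580833-26581132, held it on the plus strand at -90 and on the minus strand at -49. The motif occurs in 13.3% of all 32851 RefSeq mouse promoter windows. AGATAA was found in Tek at position 37 after the start, and occurs in 11.2% of all windows. CCGGAAG (8.86% of all windows), AACAATG (3.78%) and TATAAA (13.6%) had no match in the 8 windows, and no match overlapped another. None of the 5 motifs was found in the Kdr, Cldn5 and Tie1 windows or in the remaining Egfl7 window. A match was thus held by 4 of the 8 windows. The window of Tie1, a gene also higher in treated fat pad tumors, is not shown.

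**Figure D1:**
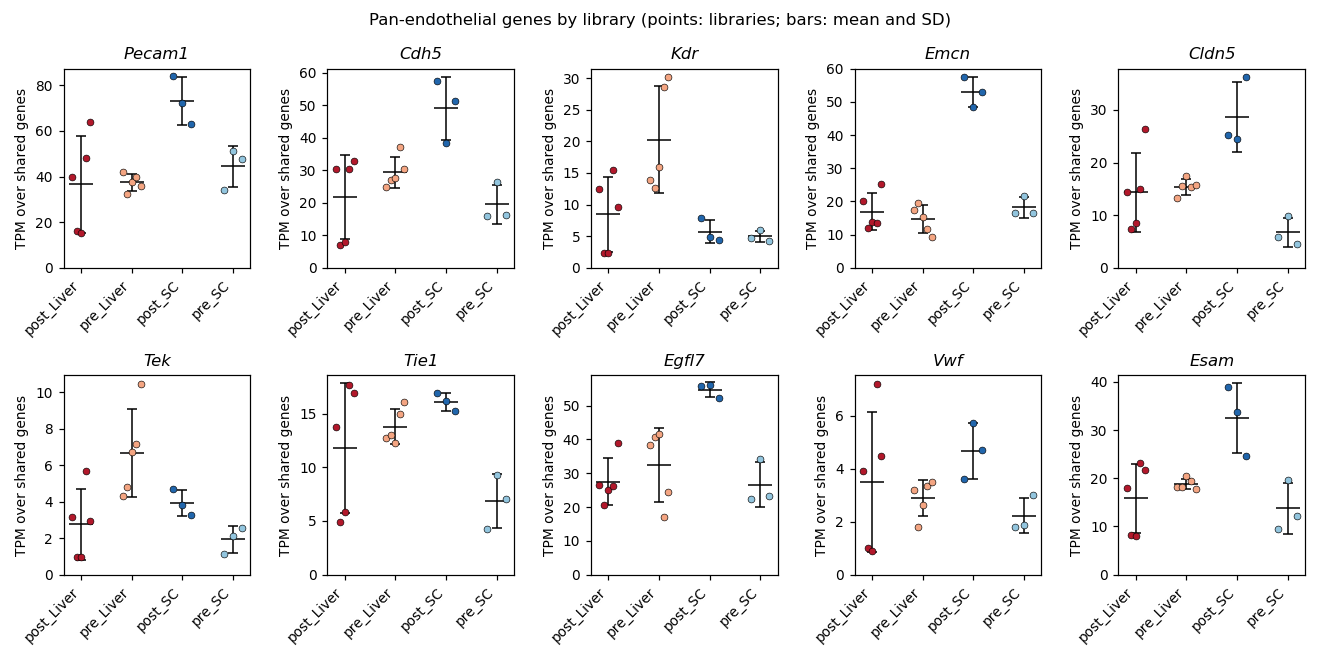
TPM over the genes shared by both tables, 1 panel per gene, with a point per library and the mean and SD of each group. The post_SC points lie above all pre_SC points for every gene but Kdr, and 2 of the 5 post_Liver points lie low for most genes.

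Levels were set side by side as TPM (a relative transcript abundance that corrects for gene length) computed over the shared genes. They were not tested across the tables, which were processed separately. The 10 genes together summed to 80.4 to 243 TPM in post_Liver, 186 to 197 TPM in pre_Liver, 304 to 352 TPM in post_SC and 116 to 182 TPM in pre_SC libraries. Untreated liver tumors thus lay in a narrow band and treated fat pad tumors above all others. Post_Liver replicates 2 and 3 stood apart from their group, with 80.4 and 88.5 TPM beside 183, 202 and 243 TPM in replicates 1, 4 and 5. Their correlation across genes (Pearson r = 0.992) was above that of any other post_Liver pair (0.783 to 0.959). Results of the 10 genes in liver are therefore given with and without them.

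The 10 genes spanned a wide range of abundance. Pecam1 was the most abundant in each group by mean, at 36.5 ± 21.1 TPM in post_Liver, 37.5 ± 3.80 TPM in pre_Liver, 73.0 ± 10.5 TPM in post_SC and 44.4 ± 9.06 TPM in pre_SC (SD, n = 5, 5, 3 and 3). Tek and Vwf were the least abundant in each group. Vwf averaged 3.50 ± 2.64 TPM in post_Liver, 2.90 ± 0.691 TPM in pre_Liver, 4.69 ± 1.06 TPM in post_SC and 2.23 ± 0.675 TPM in pre_SC. Ordered by mean (post_SC, post_Liver, pre_Liver, pre_SC), each Vwf level differed from the next by less than the larger of their SDs.

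For 8 of the 10 genes the highest group mean was that of post_SC, and for Kdr and Tek it was that of pre_Liver. Kdr averaged 8.47 ± 5.96 TPM in post_Liver, 20.2 ± 8.43 TPM in pre_Liver, 5.71 ± 1.87 TPM in post_SC and 4.99 ± 0.897 TPM in pre_SC. The lowest of the pre_Liver libraries (12.6 TPM) was above the highest fat pad library (7.85 TPM), and the fat pad groups overlapped. Tek averaged 2.75 ± 1.95 TPM in post_Liver, 6.68 ± 2.43 TPM in pre_Liver, 3.91 ± 0.718 TPM in post_SC and 1.94 ± 0.740 TPM in pre_SC. The mean of pre_SC was the lowest for 8 genes; for Pecam1 the lowest was that of post_Liver, and for Emcn that of pre_Liver.

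After paclitaxel, most of the 10 genes were higher in fat pad tumors. In post_SC over pre_SC, 6 of the 10 genes rose at a Benjamini-Hochberg adjusted p under 0.05 (limma on log2(TPM + 1)) and none fell, where 6.97% of 13366 genes tested were called, 2.68% as higher and 4.29% as lower. The largest rises were those of Cldn5, a tight junction protein of the blood-brain barrier and other vessels, and Emcn. For 9 of the 10 genes every post_SC library lay above every pre_SC library, which held in this direction for 16% of all genes tested. The median log2 change of the 10 genes was 1.11, and that of all genes tested was -0.03.

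At the cell junctions, Cldn5 had 25.0, 24.3 and 36.0 TPM in post_SC libraries, against 5.84, 9.76 and 4.57 TPM in pre_SC libraries. The log2 change was 1.97 ± 0.28 (SE, adjusted p = 0.0155). Every treated library lay at more than 24 TPM, well clear of the highest untreated one. Cdh5, the adherens junction cadherin of endothelium, had 57.0, 38.2 and 50.9 TPM in post_SC, against 15.8, 26.2 and 16.2 TPM in pre_SC libraries, a log2 change of 1.31 ± 0.23 (adjusted p = 0.0252). Esam, an adhesion molecule of endothelial tight junctions, had 38.8, 33.6 and 24.6 TPM in post_SC, against 9.46, 19.6 and 12.1 TPM in pre_SC libraries, a log2 change of 1.21 ± 0.28 (adjusted p = 0.0448). For both genes pre_SC replicate 2 was the highest untreated library. Pecam1, which joins endothelial cells to each other and to passing leukocytes, had 83.4, 71.8 and 62.5 TPM in post_SC, against 34.0, 51.0 and 47.6 TPM in pre_SC. Its groups did not overlap, but its log2 difference of 0.71 ± 0.18 missed the threshold (adjusted p = 0.0615).

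Among the surface and secreted proteins, Emcn had 57.3, 48.1 and 52.7 TPM in post_SC, against 16.3, 21.7 and 16.3 TPM in pre_SC libraries. Its log2 change was 1.50 ± 0.16 (adjusted p = 0.00653), the smallest adjusted p of the 10 genes. Egfl7, which endothelial cells secrete into their matrix, had 55.5, 55.8 and 51.9 TPM in post_SC, against 22.2, 34.1 and 23.1 TPM in pre_SC, a log2 change of 1.04 ± 0.18 (adjusted p = 0.022). The treated libraries lay close together for both genes. Vwf, the carrier of clotting factor VIII, had 3.58, 5.69 and 4.69 TPM in post_SC, against 1.78, 1.88 and 2.99 TPM in pre_SC. Its groups did not overlap, and its log2 difference of 0.82 ± 0.24 missed the threshold (adjusted p = 0.0854).

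The 3 receptor kinases differed among themselves. Tie1 had 16.8, 16.1 and 15.2 TPM in post_SC, against 4.24, 9.22 and 6.98 TPM in pre_SC, a log2 change of 1.17 ± 0.25 (adjusted p = 0.0368). Tek, the angiopoietin receptor, had 4.65, 3.78 and 3.24 TPM in post_SC, against 1.11, 2.14 and 2.53 TPM in pre_SC, and its log2 difference of 0.77 ± 0.26 was not called (adjusted p = 0.115). Kdr, the main signalling receptor for VEGF, had 7.81, 4.86 and 4.37 TPM in post_SC, against 4.75, 5.94 and 4.19 TPM in pre_SC. It was the 1 gene of the 10 whose groups overlapped, with a log2 difference of 0.14 ± 0.25 (adjusted p = 0.739).

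**Figure D2:**
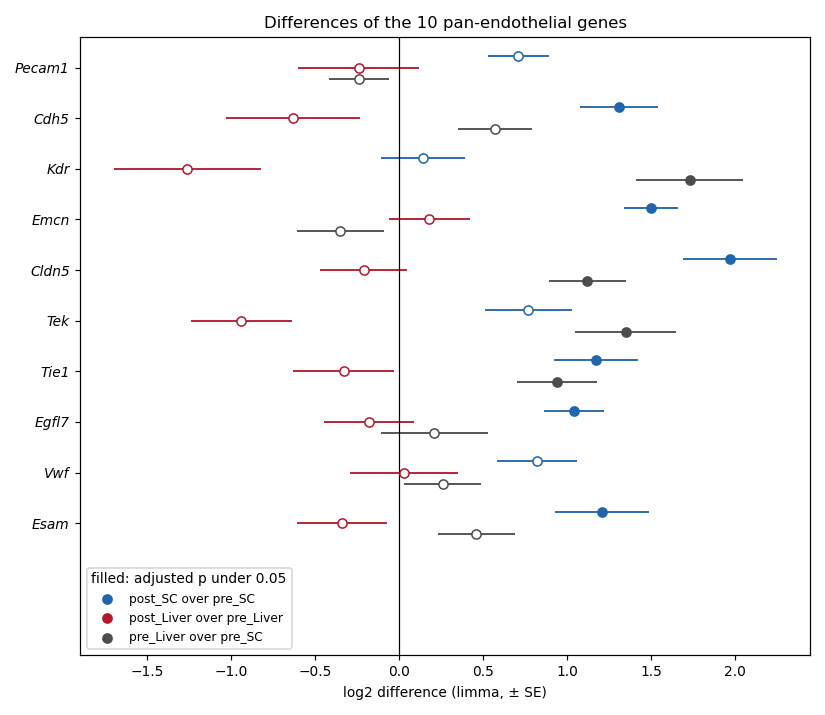
Log2 differences with their SE for the 10 genes in the fat pad response, the liver response and the comparison of sites before treatment, with filled points at an adjusted p under 0.05. Fat pad changes run between 0.14 (Kdr) and 1.97 (Cldn5), and liver changes between -1.26 (Kdr) and 0.18 (Emcn).

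These calls rested on few libraries. With no filter on low values Tie1 (adjusted p = 0.064) and Esam (0.0715) were not called, and without the mean-variance trend Esam (0.0607) was not. Emcn was called whichever library was left out. Without pre_SC replicate 1 or 3 it was the only one of the 10 (1 called), without post_SC replicate 1, 2 were called, without post_SC replicate 3, 3 were, and the log2 change of each of the 6 genes stayed above 0 throughout. Egfl7 overlaps Agpat2 on the other strand, the microRNA genes Mir126a and Mir126b and the annotated gene Gm20532, and Cdh5 overlaps the antisense gene Gm29682. The strand of counting is not given in the sources used here, so reads in those overlaps cannot be told apart.

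The other vascular genes did not all follow. Of 9 VEGF ligands and receptors, 5 fell and none rose after paclitaxel in fat pad tumors, with a median log2 change of -0.79. They were Vegfa (-1.09 ± 0.16, adjusted p = 0.0168), the main ligand of Kdr, its receptor Flt1 (-1.08 ± 0.22, adjusted p = 0.0337), the ligands Vegfb (-0.79) and Pgf (-1.47), and the coreceptor Nrp2 (-0.96), which was named after its value was seen. Vegfa averaged 36.6 ± 5.38 TPM in post_SC and 78.9 ± 12.0 TPM in pre_SC (SD, n = 3 each). Among 7 genes of the angiopoietin and TIE pathway, Ptprb, the phosphatase that acts on TIE2, rose (0.97 ± 0.20, adjusted p = 0.0364), and no gene fell. Of 11 Notch and tip or stalk genes tested, Robo4, a guidance receptor of stable endothelium, rose (1.66 ± 0.27, adjusted p = 0.0199) and Notch1 fell (-0.77 ± 0.18, adjusted p = 0.0443). Of 11 endothelial transcription factors tested, Erg, an ETS factor, rose (0.98 ± 0.19, adjusted p = 0.0316), and the median log2 change of the list was 0.60.

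Of 25 other endothelial surface and junction genes tested, 5 rose and 2 fell, with a median of 0.65. The summed level of the whole list overlapped, at 922 to 1052 TPM in post_SC and 927 to 1004 TPM in pre_SC. Clec14a, an endothelial C-type lectin, averaged 8.29 ± 2.15 TPM in post_SC and 1.29 ± 0.234 TPM in pre_SC, and rose by a log2 of 2.00 ± 0.24 (adjusted p = 0.0103). Gpihbp1, which holds lipoprotein lipase on capillaries, averaged 77.6 ± 15.0 TPM in post_SC and 15.98 ± 9.72 TPM in pre_SC, and rose by 2.34 ± 0.36 (adjusted p = 0.0171). Ramp2, a partner of the adrenomedullin receptor, rose by 1.27 ± 0.21, and S1pr1, the receptor for sphingosine 1-phosphate, by 1.01 ± 0.19. The 2 that fell, Eng (-0.53 ± 0.11) and Tm4sf1 (-0.74 ± 0.16), were named after their values were seen. Eng is a TGF-beta coreceptor of endothelium that other stromal cells carry too.

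**Figure D3:**
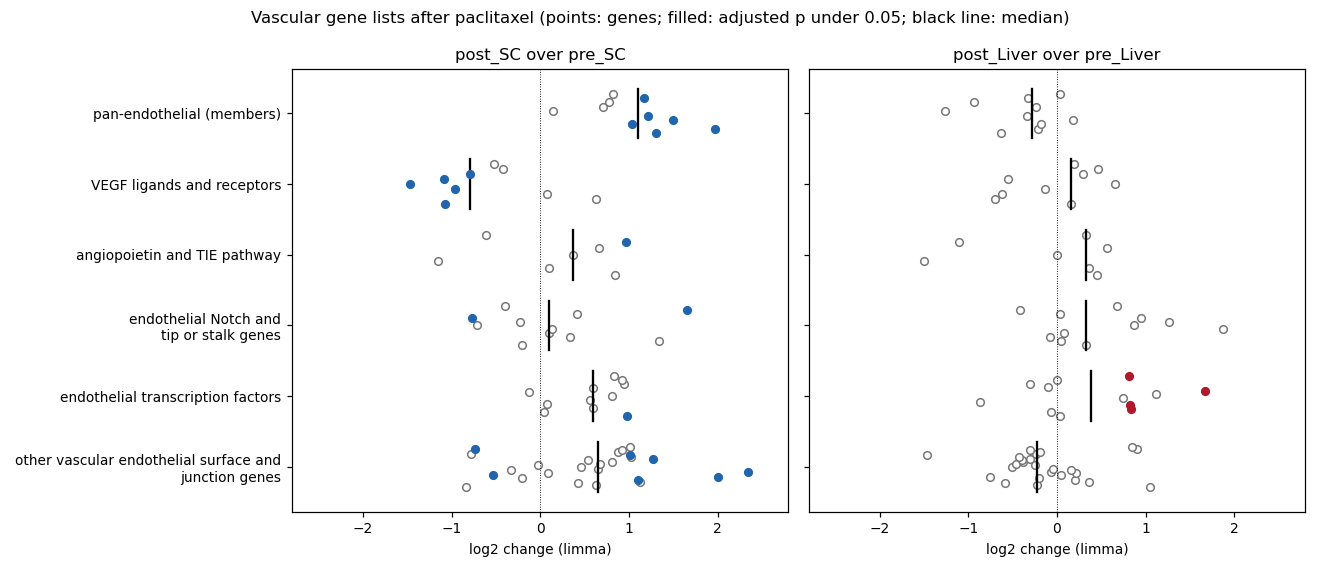
Log2 changes after paclitaxel for the genes of 6 vascular lists in fat pad tumors (left) and liver tumors (right), with a point per gene, filled at an adjusted p under 0.05, and a black line at the list's median. In fat pad tumors the median is 1.11 for the 10 pan-endothelial genes and -0.79 for VEGF ligands and receptors, and in liver tumors it is -0.28 and 0.16.

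Other cell types also differed between the fat pad groups. Among 12 genes of pericytes and smooth muscle, the cells that wrap vessels, Higd1b (2.19 ± 0.28, adjusted p = 0.0115), Abcc9 (1.37 ± 0.25, adjusted p = 0.0269) and Rgs5 (1.22 ± 0.23, adjusted p = 0.0301) rose and Cspg4 fell (-1.09 ± 0.21, adjusted p = 0.0313). Their summed level was 255 to 726 TPM in post_SC and 235 to 311 TPM in pre_SC. The 16 carcinoma epithelium genes summed to 6037 to 7363 TPM in post_SC and 6835 to 6933 TPM in pre_SC, with none called. The low oxygen list, which includes Vegfa, had 6 of 10 genes lower and summed to 735 to 765 TPM in post_SC and 1531 to 1673 TPM in pre_SC. The list for dividing cells had 6 of 8 genes lower and summed to 247 to 358 TPM in post_SC and 476 to 558 TPM in pre_SC. The platelet and megakaryocyte list, of which 5 of 11 genes were tested, summed to 18.6 to 22.1 TPM in post_SC and 33.4 to 87.7 TPM in pre_SC. Of those 5 genes, Pf4, a platelet chemokine, fell (-3.01 ± 0.45, adjusted p = 0.0168), to 4.28, 4.28 and 2.68 TPM in post_SC, against 17.6, 40.7 and 69.1 TPM in pre_SC, the other 4 were not called, and the median log2 change was -0.10. The part of any of these in the endothelial result was not tested.

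In liver tumors none of the 10 endothelial genes was called after paclitaxel. In post_Liver over pre_Liver, limma on log2(FPKM + 1) called 0 of the 10, where 3.64% of 13008 genes tested were called, 2.24% as higher and 1.41% as lower. At an unadjusted p under 0.05, Kdr and Tek were lower. The groups of all 10 genes overlapped, against 5.16% of all genes tested that lay wholly above and 1.47% wholly below. The median log2 difference of the 10 genes was -0.28, and that of all genes was 0.37. That median depends on the scaling, as it was 0.03 with median-of-ratios factors, with a log2 difference of the 10 genes of -1.57 (Kdr) to -0.17 (Emcn).

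Kdr had 6.37, 1.27, 1.30, 8.14 and 4.86 FPKM in post_Liver, against 7.50, 6.58, 8.57, 14.4 and 15.8 FPKM in pre_Liver libraries. Its log2 difference was -1.26 ± 0.44 (adjusted p = 0.104). Pre_Liver replicates 4 and 5 were the highest libraries of all. Tek had 1.62, 0.52, 0.53, 2.98 and 1.50 FPKM in post_Liver, against 2.32, 2.51, 3.59, 3.61 and 5.49 FPKM in pre_Liver, a log2 difference of -0.94 ± 0.30 (adjusted p = 0.0865). Tie1, the third receptor, had 6.99, 2.68, 3.16, 9.26 and 8.60 FPKM in post_Liver, against 6.91, 6.77, 6.54, 7.53 and 8.44 FPKM in pre_Liver. Its log2 difference was -0.33 ± 0.30 (adjusted p = 0.404). For each receptor the lowest libraries were post_Liver replicates 2 and 3.

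Among the junction genes, Cdh5 had 15.4, 3.80, 4.37, 15.8 and 16.7 FPKM in post_Liver, against 13.4, 14.1, 14.8, 18.7 and 15.9 FPKM in pre_Liver, with a log2 difference of -0.63 ± 0.40 (adjusted p = 0.256). Pecam1 had 20.2, 8.64, 8.15, 25.1 and 32.6 FPKM in post_Liver, against 22.8, 16.8, 20.1, 20.1 and 18.8 FPKM in pre_Liver (-0.24 ± 0.36, adjusted p = 0.607). For Pecam1 the treated libraries held both the lowest and the highest values of the liver set. Cldn5 ran from 4.04 to 13.4 FPKM in post_Liver and from 7.16 to 9.34 FPKM in pre_Liver (-0.21 ± 0.26), and Esam from 4.39 to 12.1 FPKM in post_Liver and from 9.38 to 10.9 FPKM in pre_Liver (-0.34 ± 0.27).

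The remaining genes moved least. Emcn had a median of 7.48 FPKM (6.49 to 12.8) in post_Liver and 8.13 FPKM (4.84 to 10.3) in pre_Liver, with a log2 difference of 0.18 ± 0.24. Egfl7 had a median of 13.5 FPKM (11.2 to 19.9) in post_Liver and 20.8 FPKM (8.62 to 22.3) in pre_Liver (-0.18 ± 0.27). Vwf had a median of 1.99 FPKM (0.48 to 3.78) in post_Liver and 1.68 FPKM (0.95 to 1.85) in pre_Liver (0.03 ± 0.32). The difference of Emcn turned negative with median-of-ratios (-0.17) and quantile (-0.14) scaling, and that of Vwf with those (-0.20 and -0.23) and without hepatocyte and red cell genes (-0.10).

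In post_Liver replicates 2 and 3, where the 10 genes summed lowest, hepatocyte RNA was low too. The 30 hepatocyte genes summed to 52360, 7118, 6027, 141639 and 51470 TPM in post_Liver replicates 1 to 5 and to 53587 to 215520 TPM in pre_Liver. The 16 carcinoma genes summed to 4544, 5745, 4837, 1577 and 3615 TPM in post_Liver replicates 1 to 5 and to 858 to 4286 TPM in pre_Liver. Replicates 2 and 3 thus held the least hepatocyte and the most carcinoma RNA of the liver set. They were also low in the 12 genes of pericytes and smooth muscle (118 and 114 TPM, beside 207 to 285 TPM in the other post_Liver and 114 to 296 TPM in pre_Liver libraries) and in the 8 fibroblast genes (913 and 899 TPM, beside 3229 to 6616 TPM in the other post_Liver and 1446 to 3391 TPM in pre_Liver libraries). Within pre_Liver, replicates 2 and 1 held the lowest hepatocyte sums (53587 and 96110 TPM). They also held the lowest sums of the 10 genes (186 and 188 TPM). Replicates 3 to 5 had 150574 to 215520 TPM of hepatocyte RNA and 193 to 197 TPM of the 10 genes. Kdr had 12.6 TPM in pre_Liver replicate 2, and 28.6 and 30.1 TPM in replicates 4 and 5. Emcn and Egfl7 were not lowest in post_Liver replicates 2 and 3, as Emcn was lower in pre_Liver replicates 4 and 5 and Egfl7 in pre_Liver replicate 4, the libraries richest in hepatocyte RNA. The part of tissue content in the endothelial differences was not tested.

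**Figure D4:**
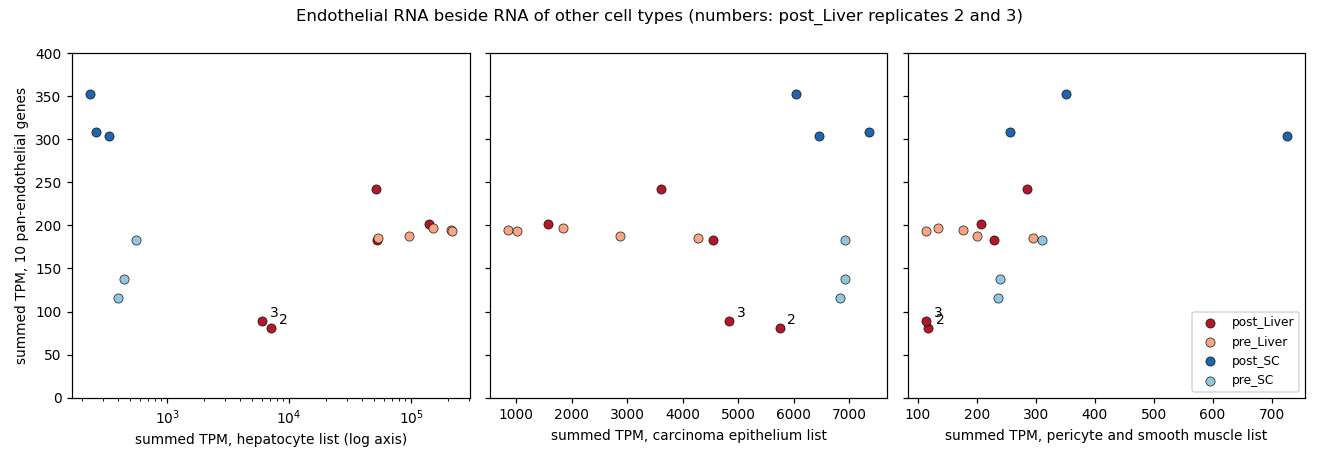
Summed TPM of the 10 pan-endothelial genes against the summed TPM of the hepatocyte, carcinoma epithelium and pericyte lists, with a point per library. Post_Liver replicates 2 and 3, at 80.4 and 88.5 TPM, lie below all other libraries, and the pre_Liver libraries stay between 186 and 197 TPM while their hepatocyte sum runs from 53587 to 215520 TPM.

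Without post_Liver replicates 2 and 3, a setting chosen after the data were seen, the log2 differences of Pecam1 (0.36), Cdh5 (0.06), Cldn5 (0.17), Tie1 (0.17) and Esam (0.10) lay above 0, those of Kdr (-0.58) and Tek (-0.56) stayed below, and none of the 10 was called. Pre_Liver replicates 4 and 5 carry another constant in the authors' untreated table than replicates 1 to 3. Against replicates 1 to 3 alone Kdr differed by -0.89 and Tek by -0.73, with neither called, and against replicates 4 and 5 alone Kdr fell by 1.81 (adjusted p = 0.0442) and Tek by 1.27 (adjusted p = 0.0414). Kdr (1.50) and Tek (1.15) also fell at the threshold without post_Liver replicate 4 (adjusted p = 0.0457 and 0.0333), and Tek fell by 1.02 without pre_Liver replicate 2 (adjusted p = 0.0439).

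Of the other vascular lists in liver tumors, genes were called in 1. Among 12 transcription factors, Lyl1 (1.67 ± 0.25, adjusted p = 0.00801), Gata2 (0.82 ± 0.16, adjusted p = 0.0266), Tal1 (0.81 ± 0.18, adjusted p = 0.0388) and Fli1 (0.84 ± 0.19, adjusted p = 0.0437) rose. These 4 factors are also known from blood and megakaryocyte cells. The platelet and megakaryocyte list, with 5 of 7 genes tested called higher, summed to 75.8 to 132 TPM in post_Liver and 27.6 to 48.1 TPM in pre_Liver, and its part in that result was not tested. None of 9 VEGF genes, 7 angiopoietin and TIE pathway genes, 11 Notch and tip or stalk genes and 25 surface and junction genes tested was called by limma. None of 12 genes of liver sinusoidal endothelium, the fenestrated lining of the liver's capillaries, was called either, with a median log2 difference of -0.86. These genes summed to 504, 161, 143, 665 and 866 TPM in post_Liver replicates 1 to 5. In pre_Liver they summed to 267.5 to 538.6 TPM. Stab2, a scavenger receptor of that endothelium, had 10.7, 2.23, 2.27, 16.7 and 4.34 TPM in post_Liver, against 9.73 to 21.99 TPM in pre_Liver. Post_Liver replicate 5 thus had the highest sum of the list but less Stab2 than any pre_Liver library.

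The site comparison before treatment set pre_Liver over pre_SC in the untreated table, after the constant that the authors' table adds to each gene was removed. Here 4 of the 10 genes were higher in liver tumors and none was lower, where 48.5% of 13623 genes tested were called, 14.7% as higher and 33.7% as lower. The 4 were the 3 receptor kinases and Cldn5, and for these the libraries did not overlap, as for 16.4% of all genes in this direction and 35.4% in the other. The median log2 difference of the 10 genes was 0.52, and that of all genes was -0.52. The median of all genes moved to -0.02 with median-of-ratios scaling.

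Kdr had 13.7, 12.5, 15.7, 27.96 and 29.5 TPM in pre_Liver, against 4.75, 5.94 and 4.19 TPM in pre_SC, a log2 difference of 1.73 ± 0.32 (SE, adjusted p = 0.00516). Tek had 4.23, 4.76, 6.57, 7.01 and 10.2 TPM in pre_Liver, against 1.11, 2.14 and 2.53 TPM in pre_SC (1.35 ± 0.30, adjusted p = 0.0107). Both receptors were highest in pre_Liver replicates 4 and 5. Tie1 had 12.6, 12.9, 12.0, 14.6 and 15.7 TPM in pre_Liver, against 4.24, 9.22 and 6.98 TPM in pre_SC (0.94 ± 0.24, adjusted p = 0.0169). Cldn5 had 13.04, 15.3, 17.1, 14.9 and 15.4 TPM in pre_Liver, against 5.84, 9.76 and 4.57 TPM in pre_SC (1.12 ± 0.23, adjusted p = 0.00873). For Cldn5 the liver libraries of both sets lay together. With pre_Liver replicates 1 to 3 alone, which share their constant with pre_SC, all 4 stayed called, with log2 differences of 1.33 for Kdr, 1.10 for Tek, 0.84 for Tie1 and 1.11 for Cldn5. Without pre_SC replicate 1, Tek and Tie1 were not called (adjusted p = 0.0548 and 0.0714), and without pre_SC replicate 3 Tie1 was not. In the untreated table as deposited, with the authors' constant kept, the 4 were called with differences of 0.74 for Kdr, 0.76 for Tek, 0.73 for Tie1 and 1.11 for Cldn5, and Egfl7 was called too (0.86, adjusted p = 0.0101).

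The other 6 genes were not called between sites. Egfl7 had 37.8, 40.4, 40.7, 16.7 and 23.8 TPM in pre_Liver, against 22.2, 34.1 and 23.1 TPM in pre_SC (0.21 ± 0.32, adjusted p = 0.589). Emcn had 17.0, 19.5, 14.9, 11.3 and 9.02 TPM in pre_Liver, against 16.3, 21.7 and 16.3 TPM in pre_SC (-0.35 ± 0.26, adjusted p = 0.271). For both genes pre_Liver replicates 4 and 5 were below replicates 1 to 3, the reverse of Kdr and Tek. Cdh5 (0.57 ± 0.22, adjusted p = 0.0567), Esam (0.46 ± 0.23, adjusted p = 0.11), Vwf (0.26 ± 0.23, adjusted p = 0.345) and Pecam1 (-0.24 ± 0.18, adjusted p = 0.271) overlapped between the groups. With median-of-ratios scaling Cdh5 (1.10), Esam (0.97) and Egfl7 (0.74) were also called higher, and Pecam1 (0.29) and Emcn (0.16) lay above 0.

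Other vascular genes went both ways between sites, as did all genes tested (14.7% called higher and 33.7% lower). The median log2 difference was -0.56 for the VEGF list and -0.63 for the Notch list, near the -0.52 of all genes. It was -0.12 for the angiopoietin list, 0.25 for transcription factors and 0.55 for surface and junction genes. Of 9 VEGF genes, Flt4 (2.24), the receptor for Vegfc, and Nrp1 (1.24) were higher in pre_Liver, and Nrp2 (-2.04), Flt1 (-1.36), Pgf (-2.49) and Vegfb (-0.72) were lower. Nrp1 and Vegfb were named after their values were seen. Of the 7 genes on the angiopoietin and TIE list, Ptprb (1.88) and Angptl4 (1.77) were higher. Angpt2 (-1.22), an antagonist of TIE2 in sprouting vessels, was lower. Of 25 surface and junction genes tested, 13 were higher and 4 lower, led by Clec14a (1.75), Jam2 (1.67), Ramp2 (1.07) and Icam2 (1.13), all higher. Of 11 Notch and tip or stalk genes tested, 2 were higher and 4 lower, led by Jag1 (-2.67) and Unc5b (-2.06), and of 11 transcription factors tested Hhex (2.90) and Erg (0.90) were higher and Klf4 (-1.53) was lower. Hhex is also a factor of hepatocytes. The libraries hold whole tumors, and the part of carcinoma and hepatocyte RNA in the differences of these lists was not tested.

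Of the markers of the liver's own sinusoidal endothelium, Stab2 and Clec4g were high in pre_Liver libraries and near 0 in pre_SC libraries. The sums of all 12 listed genes overlapped, at 267.5 to 538.6 TPM in pre_Liver and 233.5 to 349.6 TPM in pre_SC. With Stab2 and Clec4g near 0 there, the pre_SC sums came from other genes of the list. Which cells held that RNA was not tested. Of 12 sinusoidal genes, 9 were higher in pre_Liver, led by Stab2 (3.99 ± 0.28), Clec4g (5.73 ± 0.54), Oit3 (3.56 ± 0.34) and Dnase1l3 (2.78 ± 0.32). Stab2 had 9.73 to 21.99 TPM in pre_Liver and 0.0195 to 0.0412 TPM in pre_SC, and Clec4g, a lectin, had 19.2 to 127 TPM in pre_Liver and 0.0780 to 0.165 TPM in pre_SC. Prox1, which marks lymphatic endothelium and also hepatocytes, had 8.05 to 39.3 TPM in pre_Liver and 0.0975 to 0.321 TPM in pre_SC. The 30 hepatocyte genes, all called higher, summed to 53587 to 215520 TPM in pre_Liver and 393 to 553 TPM in pre_SC. The carcinoma genes, of which 14 of 16 were called lower, summed to 858 to 4286 TPM in pre_Liver and 6835 to 6933 TPM in pre_SC. The part of host liver in the endothelial differences between sites was not tested.

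The responses of the 2 sites were then set against each other in 1 fit of all 16 libraries on TPM over the shared genes. The liver response minus the fat pad response was below 0 for all 10 genes, with a median of -1.53 beside 0.39 for all genes. Of the 10, 1 was called, where 3.02% of 13705 genes tested were, 0.795% as lower. It was Cldn5 (-2.19 ± 0.46, adjusted p = 0.0226), which averaged 14.3 ± 7.48 TPM in post_Liver and 15.4 ± 1.50 TPM in pre_Liver (SD, n = 5 each), and 28.6 ± 6.61 TPM in post_SC and 6.76 ± 2.72 TPM in pre_SC (SD, n = 3 each). Tek (-1.91 ± 0.53), Emcn (-1.31 ± 0.37), Esam (-1.57 ± 0.47), Cdh5 (-1.98 ± 0.62), Egfl7 (-1.22 ± 0.39) and Tie1 (-1.53 ± 0.50) had adjusted p-values between 0.0665 and 0.094. For Kdr (-1.52 ± 0.71, adjusted p = 0.198), Pecam1 (-0.96 ± 0.54, adjusted p = 0.262) and Vwf (-0.82 ± 0.58, adjusted p = 0.361) no difference between the responses was called. Without post_Liver replicates 2 and 3, Cldn5 (-1.76, adjusted p = 0.0235) and Cdh5 (-1.21, adjusted p = 0.0433) were called. Without pre_SC replicate 1 or 3, or without post_SC replicate 1 or 3, none of the 10 was called by limma.

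**Figure D5:**
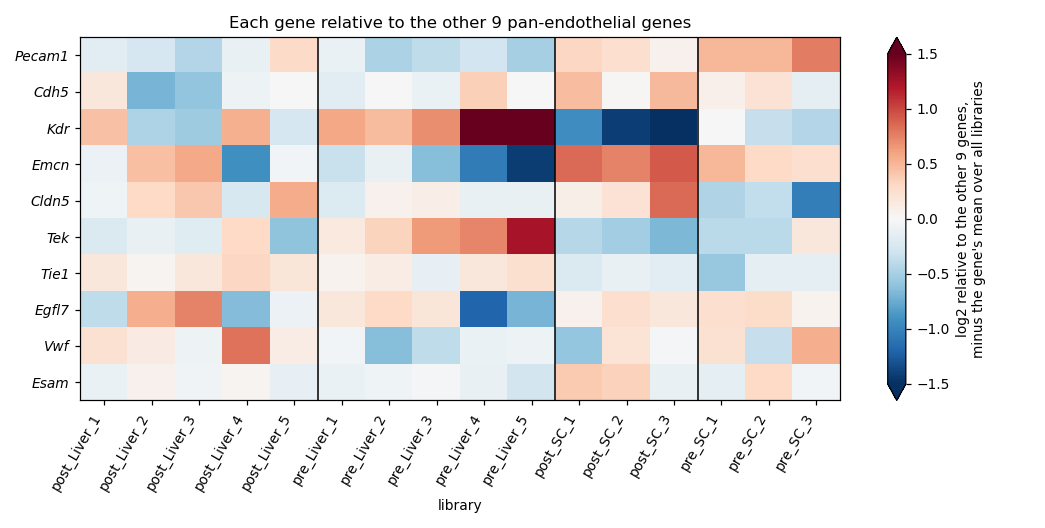
Each gene's log2(TPM + 1) minus the mean of the other 9 genes in the same library, centred on the gene's mean over the 16 libraries, with libraries in columns. Kdr is high in the pre_Liver libraries, most of all in replicates 4 and 5, and low in post_SC, while Emcn and Egfl7 are low in pre_Liver replicates 4 and 5.

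The mix of the 10 genes was not the same in each group, shown by the level of each relative to the other 9 in its library. Kdr lay at -0.74 (-1.22 to -0.15) in post_Liver and 0.31 (-0.21 to 0.93) in pre_Liver on the log2 scale, and at -1.97 (-2.20 to -1.62) in post_SC and -0.95 (-1.12 to -0.69) in pre_SC. Relative to the other 9 genes, Kdr was thus lower in post_SC than in pre_SC, with no overlap between those groups. Its own TPM overlapped between them, and the measure is not a share of all endothelial RNA. Emcn lay at 0.56 (-0.35 to 1.14) in post_Liver and -0.14 (-0.86 to 0.46) in pre_Liver, and at 1.40 (1.31 to 1.49) in post_SC and 0.92 (0.82 to 1.07) in pre_SC. Cldn5 lay at 0.22 (-0.21 to 0.59) in post_Liver and -0.01 (-0.17 to 0.14) in pre_Liver, and at 0.42 (0.12 to 0.89) in post_SC and -0.58 (-1.0 to -0.33) in pre_SC. For these 2 genes as well the fat pad groups did not overlap. Nor did they for Pecam1 (1.76 to 2.01 in post_SC and 2.20 to 2.47 in pre_SC). For Tek they lay close but apart (-2.58 to -2.33 in post_SC and -2.31 to -1.73 in pre_SC). No share over all genes is at hand for this measure, and it was not tested. Esam and Tie1 kept the most even relative level, with Esam between 0.13 and 0.80 and Tie1 between -0.84 and 0.04 in all libraries.

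Across the 16 libraries the genes followed each other to different degrees. Cdh5 (Pearson r = 0.958), Esam (0.952) and Tie1 (0.930) followed the mean of the other 9 most closely, and Kdr (0.418), Emcn (0.459) and Egfl7 (0.593) least. Within the 6 fat pad libraries Emcn (0.980) and Egfl7 (0.987) followed the others and Kdr (0.404) did not, whereas within the 10 liver libraries Kdr did (0.830) and Emcn (0.196) and Egfl7 (0.303) did not. These are descriptions, as the libraries share groups, tissue content and scaling. Of 13695 genes with a mean of at least 1 TPM, the 10 most like the mean of the pan-endothelial genes over the 16 libraries were Robo4 (r = 0.947), Ldb2 (0.946), Ccm2l (0.933), Adgrl4 (0.917), Ramp2 (0.908), Rtl8a (0.903), Sox18 (0.897), Rasip1 (0.894), Shank3 (0.894) and Tmem88 (0.885). Robo4 averaged 10.3 ± 4.64 TPM in post_Liver, 13.4 ± 2.46 TPM in pre_Liver, 21.9 ± 1.84 TPM in post_SC and 6.58 ± 3.08 TPM in pre_SC. Its group means stood in the same order as those of Cdh5, Cldn5, Tie1, Egfl7 and Esam, with post_SC highest, then pre_Liver, then post_Liver, and pre_SC lowest. As Robo4 was picked for its likeness to the 10 genes over the same libraries, this shared order is no separate result.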

How the data were processed

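The authors deposited 3 tables without naming a unit, so units were read from the values. The liver table holds FPKM as deposited by the authors (column sums of 511644 to 547589), and the subcutaneous table holds TPM as deposited (column sums of 998918 to 999084 over the genes kept). The untreated table, deposited by the authors, holds TPM plus a constant per gene, which pre_Liver replicates 1 to 3 share with pre_SC and whose sign is turned in pre_Liver replicates 4 and 5, and 2376 of its genes have values below 0. For each gene the constant equalled the gap in mean TPM between pre_Liver replicates 1 to 3 and 4 to 5, divided by 2. With the sign of that gap turned, the deposited means of these replicates were made equal. The constant was removed, restoring TPM for 17149 genes and the gap between these replicates. The design had assumed that this table held usable normalized values, and its unchanged values served as an alternative. The submitters' processing notes name fastp, StringTie, GRCm38 and mm10, without roles. Read counts are not given, so depth is unknown and no counting interval is given.

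Names that had become dates (22 of the subcutaneous table, 24 of the untreated one) and 1 name on more than 1 row were left out. Tests used log2(value + 1) of genes averaging at least 1 over the fitted libraries, which understates changes of low genes. Comparisons were two-sided tests of limma 3.58.1 under R 4.3.3, by lmFit and by eBayes with its trend option, with group as the only term and Benjamini-Hochberg adjustment over all genes tested at 0.05. The scripts were tested on simulated data. Tables and plots were made with Python 3.11.15, pandas 2.3.3, NumPy 2.4.6 and matplotlib 3.10.9.

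Genes and lists were chosen with earlier results of these data known. Named beside the 10 genes are up to 4 called members of each other list in order of p, the 10 genes of the highest likeness and marker genes of other cell types. Alternatives changed the pseudocount, the filter, the scaling, the trend, the untreated libraries used and the replicate block, and left out each library in turn. Same-numbered libraries did not deviate together throughout (correlations of -0.158 to 0.129 in the subcutaneous and -0.12 to 0.746 in the liver groups), so the numbers were not taken as pairs.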

Additional observations from a re-analysis of the deposited data

Results flagged for a closer look

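For 16 listed genes of endothelium and of other cell types and states, the liver response differed from the fat pad response. These were called by the interaction term at an adjusted p under 0.05 (limma), as were 3.02% of all 13705 genes tested. Of all genes tested, 2.23% were called higher and 0.795% lower. Cldn5, the 1 pan-endothelial gene among the 16, had a difference of -2.19 ± 0.46 on the log2 scale (SE, adjusted p = 0.0226). The endothelial genes Clec14a (-2.88 ± 0.53, adjusted p = 0.013), Gpihbp1 (-2.41 ± 0.39, adjusted p = 0.00752) and Robo4 (-2.12 ± 0.47, adjusted p = 0.0285) had the same sign. Clec14a averaged 3.69 ± 2.17 TPM in post_Liver and 7.13 ± 2.58 TPM in pre_Liver, and 8.34 ± 2.16 TPM in post_SC and 1.30 ± 0.236 TPM in pre_SC. Gpihbp1 averaged 38.7 ± 5.71 TPM in post_Liver and 41.2 ± 8.72 TPM in pre_Liver, and 78.1 ± 15.1 TPM in post_SC and 16.1 ± 9.77 TPM in pre_SC. The ligand Vegfb (1.08 ± 0.22, adjusted p = 0.0216) and the platelet chemokine Pf4 (4.52 ± 0.52, adjusted p = 0.00106) had the opposite sign. Pf4 averaged 28.2 ± 5.81 TPM in post_Liver and 9.72 ± 4.25 TPM in pre_Liver, and 3.75 ± 0.926 TPM in post_SC and 42.5 ± 25.8 TPM in pre_SC. The pericyte gene Higd1b was lower in the liver response (-2.26 ± 0.31, adjusted p = 0.00354), as was the hepatocyte gene Fabp1 (-4.12 ± 1.00, adjusted p = 0.0411). Higher in it were the platelet genes Ppbp (2.48) and Gp9 (1.48), the leukocyte genes Itgam (2.46) and Ly6g (2.69), and the low oxygen genes Car9 (3.48), Slc2a1 (2.66), Ndrg1 (2.74) and P4ha1 (2.77), with adjusted p-values between 0.00707 and 0.0484. No library lay apart by Dixon's test in the 20 liver groups of the 10 genes, in which chance marks about 1 in 20, and groups of 3 were not tested. The test sets the outermost library against its nearest neighbor. It therefore could not flag post_Liver replicates 2 and 3 where these were low together.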

How the results depend on the processing

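The 10 pan-endothelial genes were called in varying number. In fat pad tumors 6 were called, 4 with no filter on low values (Tie1 and Esam lost), 5 with no mean-variance trend (Esam lost), 3 with the replicate block and 1 to 5 with 1 library left out. In liver tumors 0 were called, 2 with the replicate block, 2 against pre_Liver replicates 4 and 5 alone, and 0 to 2 with 1 library left out. Between sites 4 were called, 7 with median-of-ratios scaling, 6 with quantile normalization or without hepatocyte and red cell genes, 5 in the table as deposited (Egfl7 added), 3 with the replicate block (Tie1 lost, adjusted p = 0.0592) and 2 to 6 with 1 library left out. For the difference between the responses 1 was called, 2 with a pseudocount of 5, without hepatocyte and red cell genes or without post_Liver replicates 2 and 3, 3 with median-of-ratios scaling, quantile normalization or the replicate block, and 0 to 5 with 1 library left out. The numbers were not taken as pairs, though the labels do not settle whether they are, so the replicate block is given here only. Over all genes, leaving out 1 library gave 78 to 775 calls in fat pad tumors (931 with all), 117 to 3532 in liver tumors (474), 2155 to 9387 between sites (6601) and 91 to 2595 for the difference (414), and the replicate block gave 336, 3456, 3725 and 1426. Liver calls numbered 221 with median-of-ratios scaling, 78 against pre_Liver replicates 1 to 3, 6062 against replicates 4 and 5, and, chosen after the data were seen, 139 without post_Liver replicates 2 and 3 and 159 with these averaged (257 for the difference). No called gene of the lists changed sign. Uncalled ones did: in fat pad tumors Kdr, at -0.08 to 0.28 with 1 library left out and below 0 without post_SC replicate 1; in liver tumors Pecam1 (0.36), Cdh5 (0.06), Cldn5 (0.17), Tie1 (0.17) and Esam (0.10) without post_Liver replicates 2 and 3, Emcn with median-of-ratios (-0.17) or quantile scaling (-0.14) or against pre_Liver replicates 1 to 3 (-0.09), Egfl7 against replicates 4 and 5 (0.39), and Vwf with a pseudocount of 0.1 (-0.09), median-of-ratios (-0.20), without hepatocyte and red cell genes (-0.10), quantile (-0.23), against replicates 4 and 5 (-0.12) or with 1 library left out (-0.20 to 0.22, below 0 without pre_Liver replicate 2 or post_Liver replicate 1, 4 or 5); between sites Pecam1 with median-of-ratios (0.29), without hepatocyte and red cell genes (0.00) or quantile (0.13), and Emcn with median-of-ratios (0.16) or quantile (0.05). The cause was not tested. Depth is unknown, so the precision of low values such as those of Tek and Vwf cannot be given.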
